A study of Mus musculus with 6 samples.

Results

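The genes described here are 53 members of the cell cycle and DNA replication programme, taken by symbol from a table of 49671 genes. All 53 were found, and all 53 passed the filter on low values (a mean of at least 20 over the 6 libraries), which left 15330 genes for testing. The cells were LKPR EPCAM+ cells, an epithelial line grown from a mouse skin squamous cell carcinoma. Their labelled genotype includes Lgr5CreER, p53 fl/fl and a Rosa26-YFP reporter, and all 3 groups share it. Lgr5CreER is a Cre recombinase that tamoxifen switches on in cells that express Lgr5, a stem cell gene of the hair follicle. The control group was transduced with an empty vector, and in the other groups a lentiviral construct knocked down Ntn1 (the gene of netrin-1, a secreted guidance ligand) or Unc5b (the gene of a netrin-1 receptor). Each group had 2 libraries, made from living YFP+ EPCAM+ cells sorted after 6 days in culture. No label says that the libraries of a group were separate cultures or transductions, and p-values below rest on the spread between libraries, which may be technical.

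The members work in order through the cycle. In G1, cyclin D and cyclin E kinases phosphorylate the pocket proteins (Rb1 and its relatives), which frees E2F transcription factors to switch on the genes for licensing of replication origins, for the replication fork and for nucleotide supply. In G2, B-Myb (Mybl2) and Foxm1 switch on the genes for mitotic entry, the spindle, the kinetochore and anaphase. RNA of both sets rises and falls with the cycle in dividing cells, so a bulk sample averages over cells in every phase. In such samples fewer cells of a type or phase and less RNA per cell cannot be told apart.

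The promoters of the 2 sets were searched for motifs of factors known to act on them, and 3 windows are printed to show the letters. E2F proteins bind sites such as TTCCCGC, while the mitotic genes are known for CHR elements (TTTGAA), bound by the complexes that contain B-Myb, and for CCAAT boxes, bound by NF-Y. The windows run from 250 bases before to 50 bases after a RefSeq start (GRCm38.p6), read 5′ to 3′ on the gene's strand, and capitals mark a match on either strand. The E2F motif was searched as TTCCCGC in its first form, TTCGCGC in its second form, TTGCCGC in its next form and TTGGCGC in its last form, the CHR element as TTTGAA, and the box as CCAAT. Mcm5 (a replicative helicase subunit, chr8:75109259-75109558, plus strand) is shown as an S phase gene whose window holds E2F motifs and CCAAT boxes, Ccnb2 (cyclin B2, chr9:70421505-70421804, minus strand) as a mitotic gene with TTTGAA and CCAAT, and Mki67 (the Ki-67 antigen, chr7:135716330-135716629, minus strand) as a gene with all 3 kinds of motif.
Mcm5: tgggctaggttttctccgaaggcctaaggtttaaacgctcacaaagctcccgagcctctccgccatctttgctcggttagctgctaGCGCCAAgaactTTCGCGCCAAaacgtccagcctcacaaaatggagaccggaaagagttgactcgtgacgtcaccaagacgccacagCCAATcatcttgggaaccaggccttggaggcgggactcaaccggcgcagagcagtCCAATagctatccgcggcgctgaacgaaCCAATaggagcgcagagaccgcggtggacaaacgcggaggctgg
Ccnb2: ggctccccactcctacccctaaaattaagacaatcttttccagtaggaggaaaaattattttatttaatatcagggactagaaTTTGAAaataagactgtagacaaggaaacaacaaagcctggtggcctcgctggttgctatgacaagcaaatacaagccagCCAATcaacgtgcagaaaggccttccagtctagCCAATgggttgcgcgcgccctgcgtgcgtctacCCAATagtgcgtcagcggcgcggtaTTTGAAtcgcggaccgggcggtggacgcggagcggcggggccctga
Mki67: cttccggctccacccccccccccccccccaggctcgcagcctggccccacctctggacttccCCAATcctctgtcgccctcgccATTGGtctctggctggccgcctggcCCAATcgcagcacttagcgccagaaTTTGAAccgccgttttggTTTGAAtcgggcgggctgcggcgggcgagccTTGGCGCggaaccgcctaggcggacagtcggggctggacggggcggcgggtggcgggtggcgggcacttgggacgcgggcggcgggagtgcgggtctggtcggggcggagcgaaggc

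RefSeq windows were at hand for 44 of the 53 members, 48 windows in all. In the classes of licensing, fork, nucleotide and G1/S genes, 12 of 22 windows (54.5%) held an E2F motif, 4 (18.2%) held TTTGAA and 14 (63.6%) held CCAAT. In the mitotic classes, 3 of 23 windows (13.0%) held an E2F motif, 17 (73.9%) held TTTGAA, 19 (82.6%) held CCAAT and 16 (69.6%) held both of the last. Among all 32851 windows of that length in the RefSeq table, 9.57% held an E2F motif, 17.9% TTTGAA, 37.4% CCAAT and 6.95% both of the last. In the Mcm5 window the second form of the E2F motif overlaps the last form, read on the other strand, which gives a longer run of capitals. These are matches of letters and not measured binding sites.

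The deposited values are whole numbers that sum to about 20 M per library, in a unit the authors named CP20M. They are written here as values, and their steps correspond to between 6.54 and 10.18 M counted reads per library. A member's mean value ran from 248.2 (E2f2) to 19513 (Top2a). The fewest reads behind any member were 57, for Ccne1 in empty vector library 2, with an exact 95% Poisson interval of 43.17 to 73.85 that covers counting error only. Each targeted gene was lowest in its own knock-down. Ntn1 had 1566 and 2588 in the empty vector against 359 and 431 in its knock-down (5.26-fold lower), and Unc5b had 1527 and 1573 against 419 and 352 in its own (4.02-fold lower). Across the knock-downs, Ntn1 had 1319 and 771 with Unc5b knocked down, below both controls by 1.99-fold without passing the test (adjusted p = 0.064 in limma), and Unc5b had 2311 and 2382 with Ntn1 knocked down, where it rose 1.51-fold (adjusted p = 0.019 in limma). All 9 epithelial markers were measured, with summed values of 59334 to 60476 in the empty vector, 68994 to 72249 in the Ntn1 knock-down and 59605 to 62930 in the Unc5b knock-down. Single markers moved in opposite directions under these sums. With Ntn1 knocked down Krt5 rose 3.4-fold and Krt18 1.38-fold, while Trp63 fell 2.97-fold and Cldn4 1.59-fold (adjusted p from 0.00033 to 0.023 in limma). These 4 are 44.4% of the list, where 15.1% of all genes were called. With Unc5b knocked down Krt5 alone was called, 2.43-fold higher (adjusted p = 0.0014 in limma), where 12.0% of all genes were. The 8 fibroblast markers summed to 136 to 137 in the empty vector, 211 to 311 in the Ntn1 knock-down and 139 to 237 in the Unc5b knock-down, and 2 of them reached a mean of 20. The 6 endothelial markers summed to 101 to 108, 180 to 223 and 90 to 100. Of these Cdh5 had 0 and 0 in the empty vector, 86 and 113 with Ntn1 knocked down and 2 and 0 with Unc5b knocked down (adjusted p = 0.00073 in limma for the Ntn1 knock-down), while Pecam1 was between 88 and 107 in all libraries. Of the 8 immune markers only Csf1r and Cd68 reached a mean of 20, with Ptprc, Itgam and Cd3e at 5 or less and Adgre1 and Ms4a1 at 0. Csf1r fell in the Ntn1 knock-down, from 1213 and 1511 to 347 and 443 (adjusted p = 0.0019 in limma), and Cd68 had 81 and 25, then 107 and 122, the opposite direction (adjusted p = 0.11 in limma). The part of these markers in the results was not tested.

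Per kilobase of merged exon, the most abundant members over the 6 libraries were Top2a (2165), Pcna (2127), Ccna2 (1484), Mcm6 (1392), Ccnb2 (1305) and Mki67 (1283). The least abundant were E2f2 (50.8) and Ung (77.0). Topoisomerase II alpha (Top2a) untangles replicated DNA and PCNA is the sliding clamp of the fork.

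**Figure D1:**
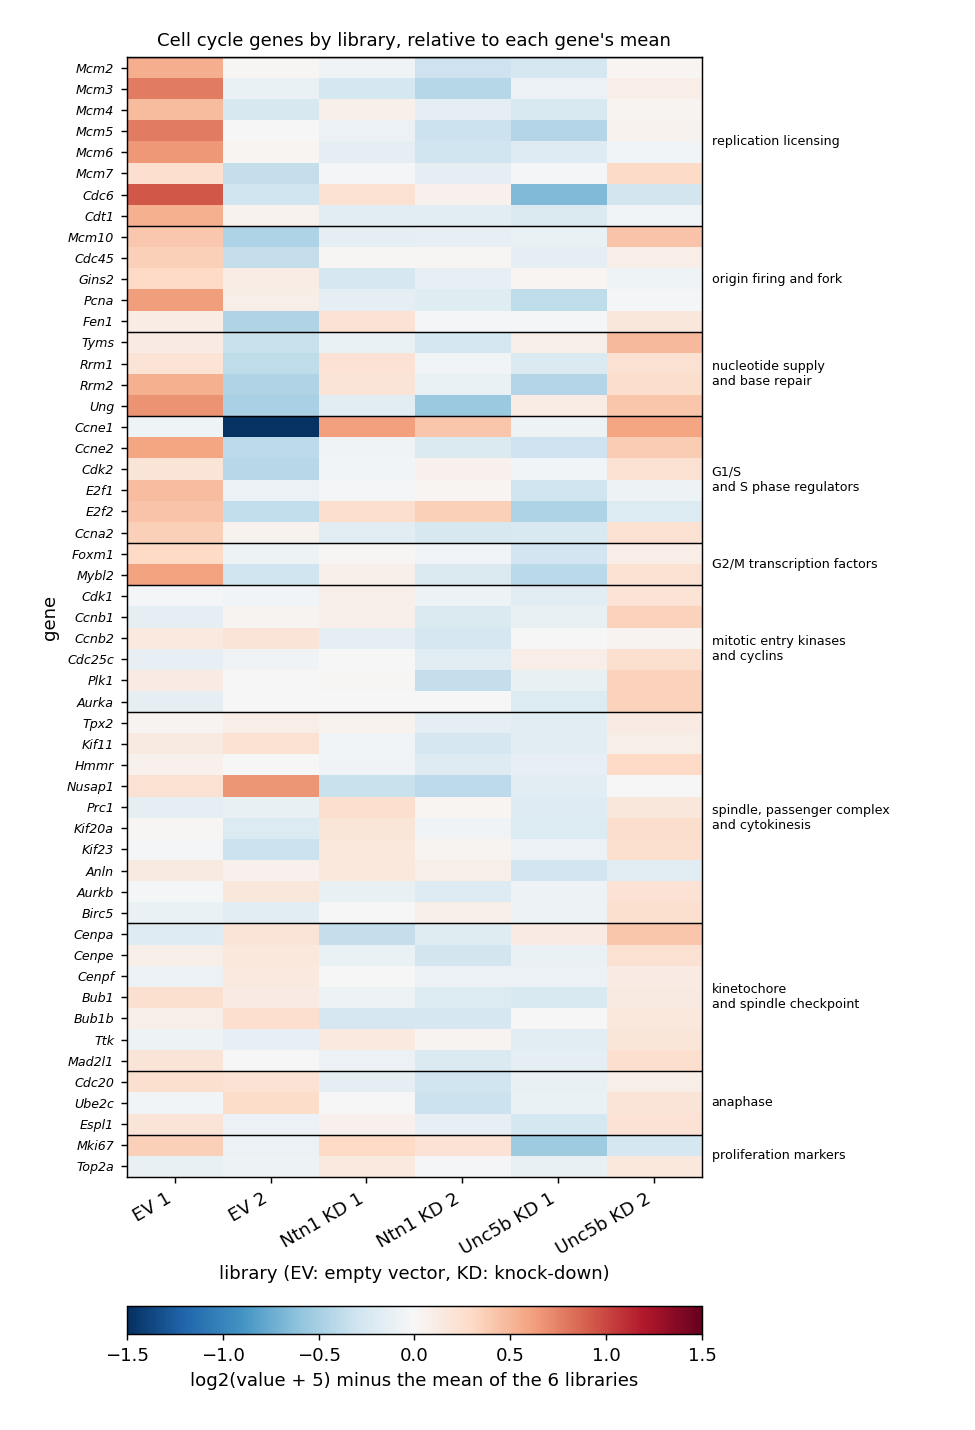
Level of each of the 53 genes (rows, grouped by role) in each of the 6 libraries (columns), as log2(value + 5) minus the gene's mean over the 6 libraries, with the colour scale below. The top rows, from replication licensing to the G1/S regulators, are higher in empty vector library 1 than in empty vector library 2 for all 23 genes, while the mitotic rows are mixed between those libraries.

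The members differed inside the control group as well as between groups. Every one of the 23 members of the licensing, fork, nucleotide and G1/S classes was higher in empty vector library 1 than in empty vector library 2, by a median of 1.53-fold, and 21 of the 23 differed by more than 1.3-fold. Of the 26 members of the mitotic classes, 12 were higher in library 1, the median ratio was 0.977, and none was higher in library 1 by more than 1.3-fold, while 2 were lower by that much. Over all 15330 genes tested, 47.5% were higher in library 1 and 14.7% by more than 1.3-fold, with a median ratio of 0.987. These are counts over genes of 1 pair of libraries, so they describe that pair and no test was made.

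The genes with these ratios span the whole G1/S programme. Cdc6, which loads the helicase onto origins, had 1498 in library 1 and 636 in library 2, a ratio of 2.35. Ccne1 and Ccne2, the E-type cyclins that start S phase, had ratios of 2.74 (356 and 130) and 1.98 (1317 and 665). Ung, a uracil glycosylase that repairs DNA, had a ratio of 2.24 (641 and 286). Rrm2, the small subunit of ribonucleotide reductase, had a ratio of 1.99 (3355 and 1683). The 6 helicase subunits Mcm2 to Mcm7 lay between 1.44 (Mcm2) and 1.83 (Mcm3), and Gins2, a subunit of the active helicase, was closest to even at 1.14. B-Myb, placed here with the G2/M factors, was higher in library 1 like the S phase genes (2056 and 1100, a ratio of 1.87), as did Ki-67 at 1.36. The mitotic kinase Cdk1 had nearly equal values (1948 and 1932), as did Top2a (18047 and 18489), and Nusap1, which bundles spindle microtubules, was lower in library 1 (2394 and 3235).

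Other genes of the pathway were mostly higher in empty vector library 1. Of 45 further replication genes, 43 were higher there, with a median ratio of 1.40 over the list. Of 63 further mitosis genes 51 were higher (81.0%), with a median ratio of 1.12, where 12 of the 26 mitotic members were (46.2%). No test compared these lists. Other measures differed between these libraries too. Library 1 had 10.18 M reads and library 2 had 8.75 M. Among the 9 epithelial markers Krt14, a keratin of basal epidermis, was 2.32-fold higher in library 1 (3917 and 1692) while Epcam was lower (8032 and 9336). Krt8 and Dsp were also higher in library 1, and Cdh1, Krt5, Krt18, Trp63 and Cldn4 were lower. The part of these in the result was not tested.

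In the knock-down groups the 2 libraries differed in another way. In the Unc5b knock-down, 52 of the 53 members were higher in library 2 than in library 1, by a median of 1.25-fold, S phase (median 1.24-fold) and mitotic classes (1.25-fold) alike, against 47.0% of all genes tested. The exception was Gins2 (1197 in library 1 and 1121 in library 2). Krt14 had 1759 in library 1 and 3817 in library 2, and the reads were 9.36 M and 8.63 M. Of the other epithelial markers, Krt5 and Krt8 were also higher in library 2. Epcam, Cdh1, Krt18, Trp63, Cldn4 and Dsp were lower in library 2. In the Ntn1 knock-down, library 1 was higher for 43 of the 53 members, by a median of 1.11-fold, and Ung was the only member that differed there by more than 1.3-fold.

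**Figure D2:**
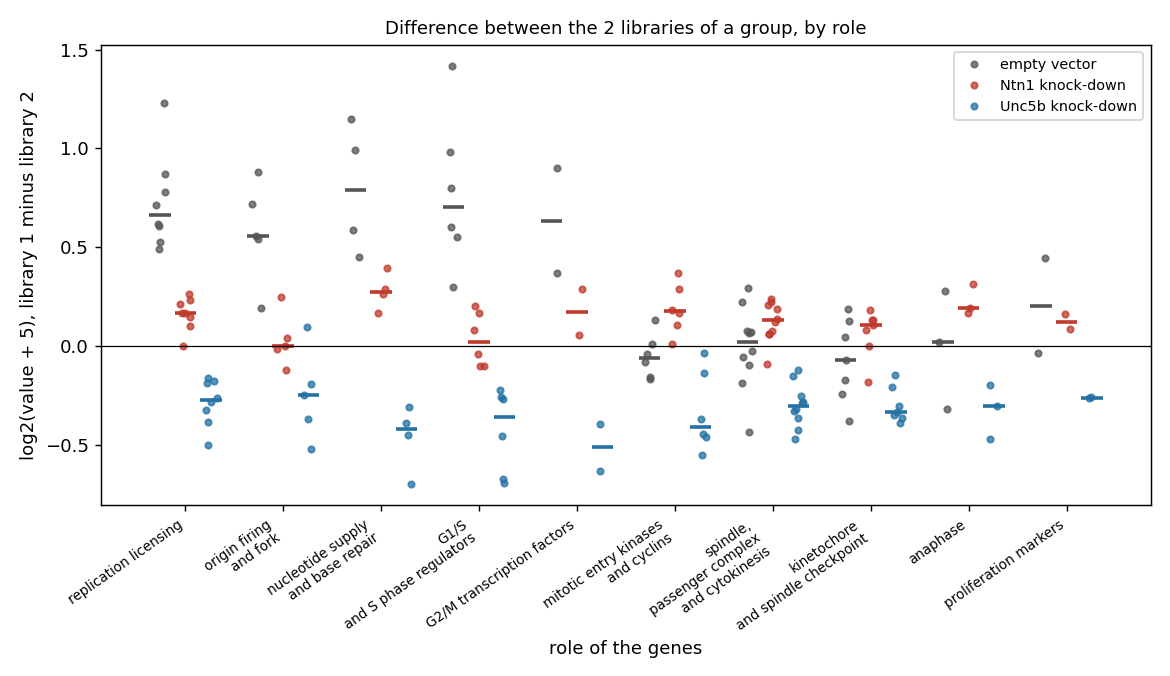
Difference on the log2(value + 5) scale between library 1 and library 2 of each group (vertical axis) for each member, by role (horizontal axis), with a bar at the median of each class and colours for the 3 groups. The empty vector points lie above 0 for all 23 licensing, fork, nucleotide and G1/S genes and scatter around 0 for the mitotic classes, while 52 of 53 Unc5b knock-down points lie below 0.

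Against that spread few members differed between groups. Comparing Ntn1 knock-down and empty vector libraries, limma with Benjamini-Hochberg adjustment over 15330 genes called 2 of the 53 members at an adjusted p under 0.05, Nusap1 and Bub1b, both lower. Among all genes tested 15.1% were called, 8.04% higher and 7.06% lower. At an unadjusted p under 0.05, 14 of the 53 members passed, 1 higher and 13 lower, where 30.1% of all genes did (14.8% higher and 15.3% lower). In the Unc5b knock-down against the empty vector no member was called, where 12.0% of all genes were (5.90% higher and 6.07% lower). At an unadjusted p under 0.05, 9 of the 53 passed, 1 higher and 8 lower, against 26.9% of all genes (14.3% higher and 12.6% lower). In this comparison limma-voom on the whole reads behind the values also called no member, where it called 11.4% of all genes. The median log2 fold change of the members was -0.15 in the Ntn1 knock-down and -0.06 in the Unc5b knock-down, beside -0.02 and 0.04 for all genes tested. Both comparisons use the same empty vector libraries.

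These counts hung on which control library was used. A fit with 1 control library has no spread between controls and borrows that of the knock-down groups. The licensing to G1/S members were all higher in empty vector library 1. Keeping library 1 alone thus favours lower calls among them, and keeping library 2 alone favours higher calls. No member was called in both directions, and these calls are no further evidence of a change. Without empty vector library 2, 9 members were called lower in the Ntn1 knock-down (Cdc6, Cdt1, Mcm2, Mcm3, Mcm5, Mcm6, Nusap1, Pcna and Ung) and 10 in the Unc5b knock-down (Cdc6, Cdt1, E2f1, Mcm2, Mcm3, Mcm4, Mcm5, Mcm6, Mki67 and Pcna). Among all genes 13.1% were then called in the Ntn1 knock-down (7.61% higher and 5.53% lower) and 9.59% in the Unc5b knock-down (5.04% higher and 4.55% lower). Without empty vector library 1, 3 were called in the Ntn1 knock-down (Ccne1 higher, Bub1b and Nusap1 lower) and 2 in the Unc5b knock-down (Ccne1 higher and Nusap1 lower). Among all genes 18.3% were then called in the Ntn1 knock-down (9.65% higher and 8.68% lower) and 15.8% in the Unc5b knock-down (8.18% higher and 7.67% lower). Leaving out either Ntn1 knock-down library lowered the calls in that comparison over all genes, members included. The members' median log2 fold change was then -0.18 (library 1 left out) and -0.083 (library 2 left out). Over all genes it was 0.005 and -0.038. The 95% intervals of the main fit rest on the spread between libraries and are not adjusted for the number of genes. They lay within 2-fold in either direction for 48 members in the Ntn1 knock-down and for 50 in the Unc5b knock-down. With 2 libraries against 2, an exact permutation test of a single gene cannot go below p = 0.333.

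**Figure D3:**
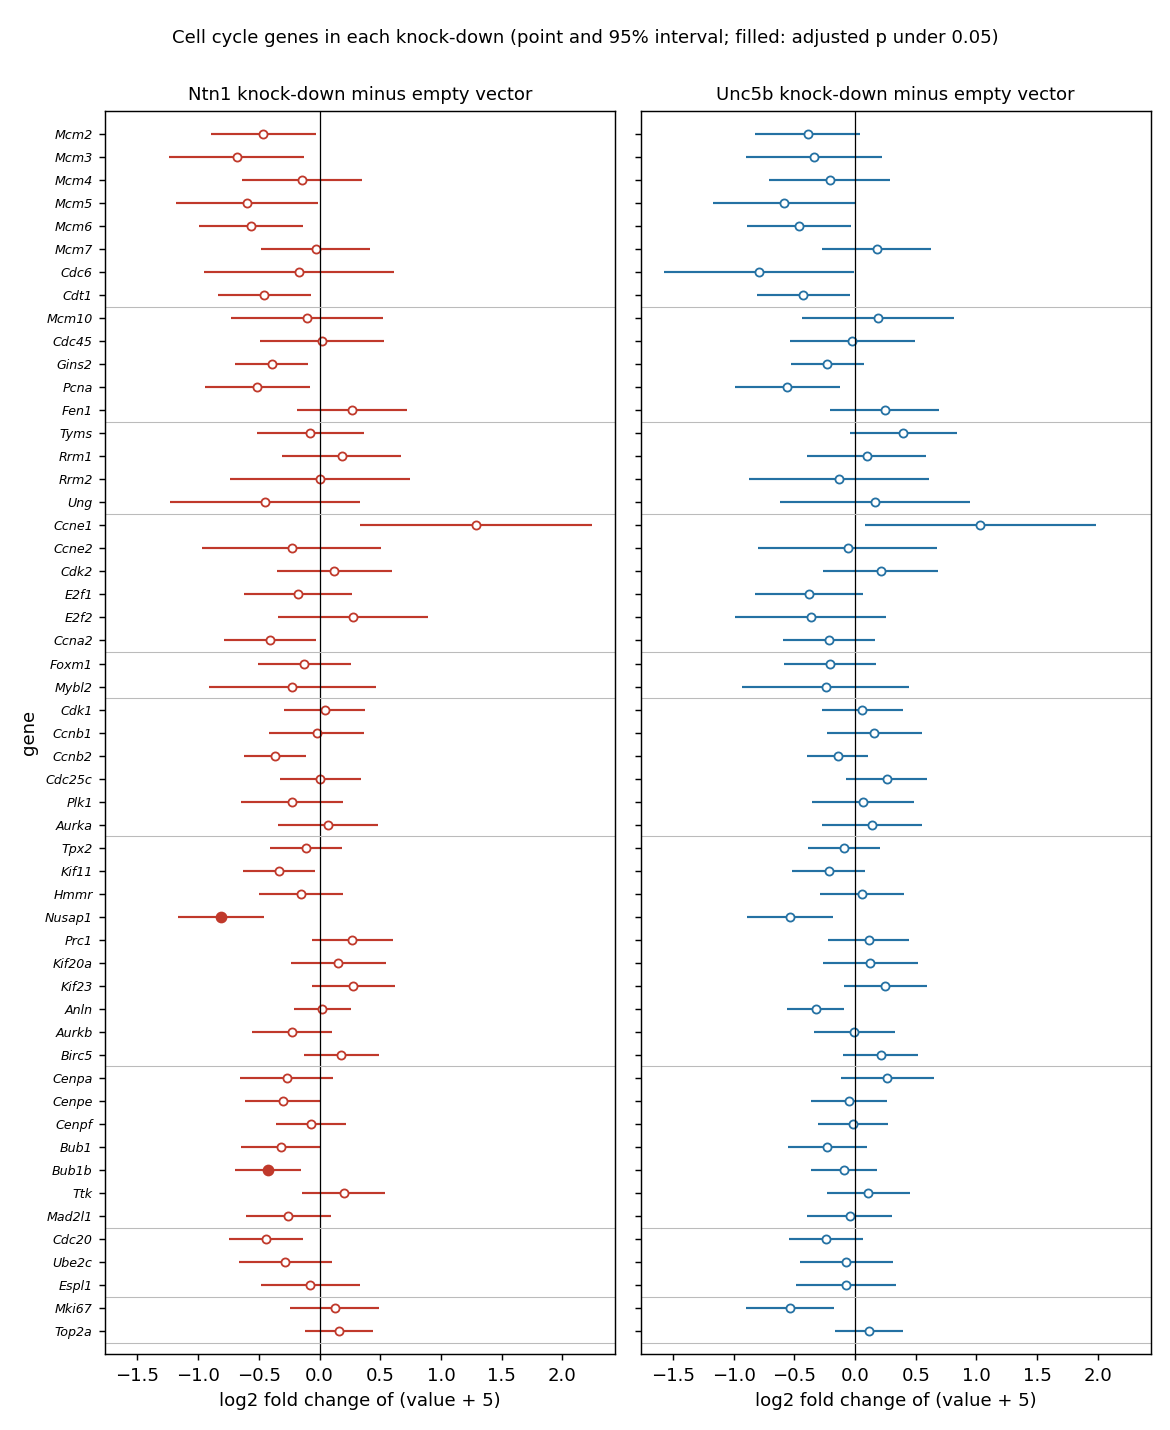
Log2 fold change of (value + 5) for each of the 53 members with its 95% interval from limma (horizontal axis), for the Ntn1 knock-down (left) and the Unc5b knock-down (right) against the empty vector, filled where the adjusted p is under 0.05. Nusap1 and Bub1b are the filled points on the left and no point is filled on the right, and the SE behind the intervals has a median of 0.22 over the 23 licensing to G1/S genes and of 0.15 over the 26 mitotic genes.

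The licensing genes had a median log2 fold change of -0.46 in the Ntn1 knock-down and -0.41 in the Unc5b knock-down, and none of the 8 passed the test in either. Mcm2, a helicase subunit, had 5503 and 3816 in the empty vector, 3636 and 3033 with Ntn1 knocked down and 3168 and 3852 with Unc5b knocked down. Mcm3, another subunit, had 6014 and 3286, then 2934 and 2617, then 3296 and 3757. Both were below both controls in the Ntn1 knock-down, and Mcm3 had the lowest fold change of its class there (-0.68 ± 0.24 SE, adjusted p = 0.10 in limma). Mcm7 had 5180 and 3395, then 4247 and 3954, then 4238 and 5307, and its groups overlapped in both comparisons. Cdc6 had 1498 and 636, then 920 and 819, then 492 and 644. Its fold change in the Unc5b knock-down (-0.79 ± 0.34 SE, adjusted p = 0.18 in limma) came with 1 knock-down library above the lower control. Mcm4, Mcm5, Mcm6 and Cdt1, which recruits the helicase with Cdc6, had fold changes from -0.59 (Mcm5) to -0.15 (Mcm4) in the Ntn1 knock-down and from -0.59 (Mcm5) to -0.21 (Mcm4) in the Unc5b knock-down.

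At the fork, Pcna had 7688 and 5282 in the empty vector, 4530 and 4400 with Ntn1 knocked down and 3807 and 4927 with Unc5b knocked down. All 4 knock-down libraries were below both controls, with log2 fold changes of -0.51 ± 0.19 (adjusted p = 0.11) and -0.56 ± 0.19 (SE, adjusted p = 0.097 in limma). Fen1, the flap nuclease that trims Okazaki fragments, had 1167 and 791, then 1263 and 1061, then 1064 and 1218, and overlapped. Mcm10, Cdc45 and Gins2, which turn the loaded helicase into a moving one, had fold changes between -0.40 (Gins2) and 0.02 (Cdc45) in the Ntn1 knock-down and between -0.23 (Gins2) and 0.19 (Mcm10) in the Unc5b knock-down.

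Among the nucleotide and repair genes no group separated from the controls. Rrm1, the large subunit of ribonucleotide reductase, had 7442 and 4953 in the empty vector, 7549 and 6284 with Ntn1 knocked down and 5546 and 7579 with Unc5b knocked down. Rrm2 had 3355 and 1683, then 2630 and 2156, then 1703 and 2768. Ribonucleotide reductase makes the deoxynucleotides for replication. Tyms, which makes thymidylate, had 1150 and 841, then 989 and 881, then 1131 and 1485. Ung had 641 and 286, then 359 and 272, then 432 and 537. Each of these 4 overlapped the controls in both comparisons, with adjusted p of at least 0.23 in limma.

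The G1/S regulators held the largest fold change of the members. Ccne1 had 356 and 130 in the empty vector, 573 and 498 with Ntn1 knocked down and 353 and 565 with Unc5b knocked down. The Ntn1 knock-down libraries were above both controls, 2.20-fold higher on average, with a log2 fold change of 1.29 ± 0.42 (SE, adjusted p = 0.075 in limma). In the Unc5b knock-down, where 1 library lay just below the higher control, it was 1.03 ± 0.42 (SE, adjusted p = 0.16 in limma). Neither passed the test. Without empty vector library 1 the log2 fold changes were 2.00 and 1.74, and without empty vector library 2 they were 0.58 and 0.32. Its partner kinase and its sister cyclin overlapped the controls in both comparisons. Cdk2 had 818 and 537, then 697 and 749, then 699 and 843, with fold changes of 0.12 and 0.21. Ccne2 had 1317 and 665, then 846 and 752, then 705 and 1144, with fold changes of -0.23 and -0.06.

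E2f1, an activating E2F, had 977 and 665 in the empty vector, 701 and 722 with Ntn1 knocked down and 573 and 669 with Unc5b knocked down, and overlapped. E2f2, its relative, had fold changes of 0.27 and -0.36. Ccna2, the cyclin of S phase and G2, had 7666 and 6228, then 5340 and 5055, then 5091 and 6981. It was below both controls in the Ntn1 knock-down alone (-0.41 ± 0.17 SE, adjusted p = 0.14 in limma), and the difference between the knock-downs was -0.20 ± 0.17 (SE, adjusted p = 0.53 in limma). Foxm1 had 3905 and 3025, then 3219 and 3091, then 2599 and 3419. Mybl2 had 2056 and 1100, then 1420 and 1162, then 1020 and 1582. Both G2/M factors overlapped the controls in both comparisons.

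**Figure D4:**
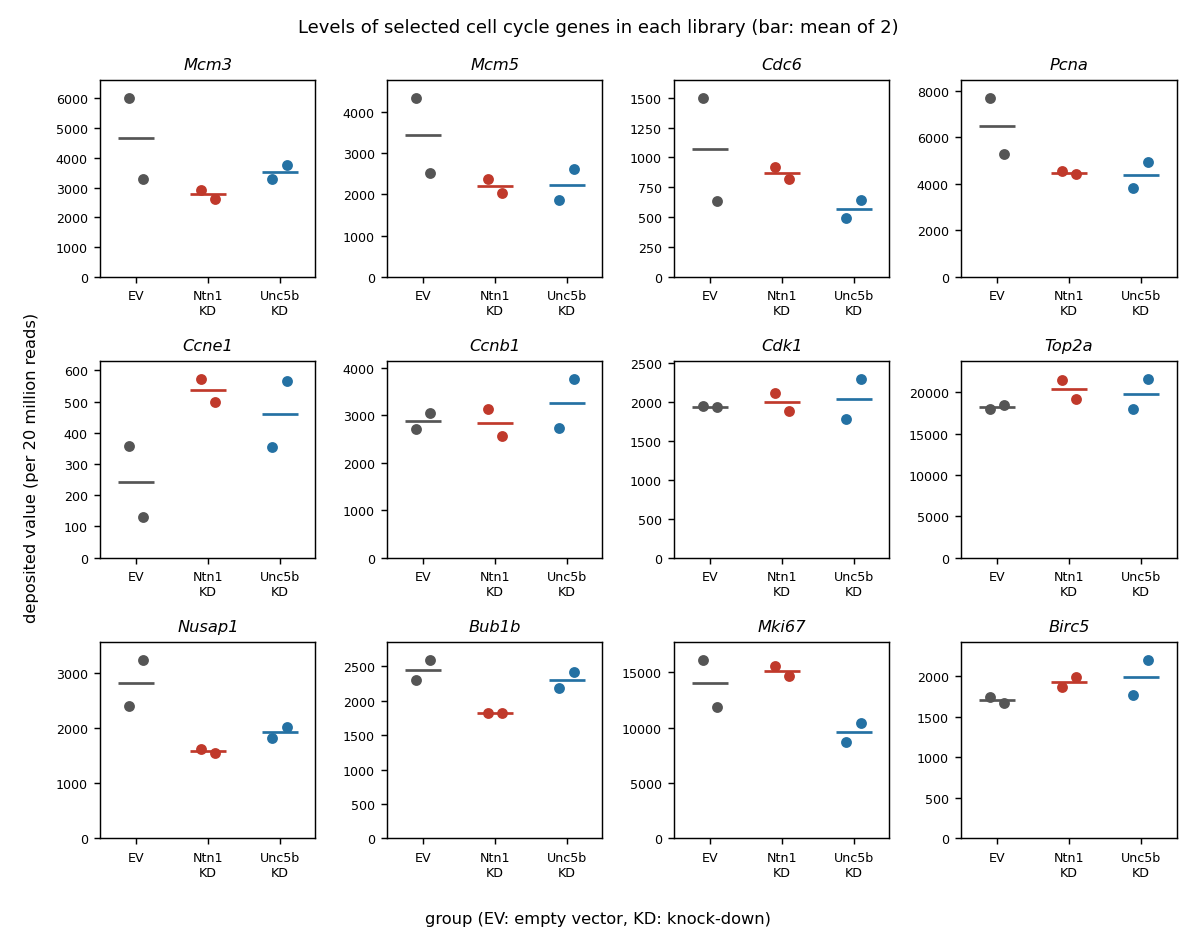
Values of 12 members in each library (points) with the mean of each group (bars), on linear axes that start at 0, for the empty vector (EV), the Ntn1 knock-down and the Unc5b knock-down. Cdk1, Ccnb1, Top2a and Birc5 have close control points, Mcm3, Cdc6 and Ccne1 have control points that lie far apart, and both Nusap1 knock-down groups lie below both controls.

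None of the 6 kinases and cyclins of mitotic entry passed the test in either knock-down. Cdk1 had 1948 and 1932 in the empty vector, 2119 and 1884 with Ntn1 knocked down and 1778 and 2300 with Unc5b knocked down. Its log2 fold changes were 0.04 (95% interval -0.29 to 0.38) and 0.06 (-0.27 to 0.39). Ccnb1, its cyclin B1 partner, had 2712 and 3046, then 3124 and 2559, then 2738 and 3769, with intervals of -0.42 to 0.37 and -0.23 to 0.55. Ccnb2 had 2203 and 2268, then 1798 and 1670, then 2001 and 2052. All 4 of its knock-down libraries were below both controls, and in the Ntn1 knock-down the fold change was -0.37 ± 0.11 (SE, adjusted p = 0.059 in limma). Cdc25c, the phosphatase that activates Cdk1, had 562 and 594, then 618 and 544, then 660 and 727. Both Unc5b knock-down libraries were above the controls for it, by 0.26 ± 0.15 (SE, adjusted p = 0.30 in limma). The kinase Aurka had 1187 and 1326, then 1322 and 1315, then 1143 and 1677, and Plk1, the polo-like kinase, had fold changes of -0.23 and 0.06.

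Nusap1 had the lowest adjusted p of the members in each comparison with the empty vector. It had 2394 and 3235 in the empty vector, 1619 and 1553 with Ntn1 knocked down and 1819 and 2022 with Unc5b knocked down. All 4 knock-down libraries were below both controls. With Ntn1 knocked down it was 1.77-fold lower, with a log2 fold change of -0.81 ± 0.16 (SE, adjusted p = 0.011 in limma), and in the Unc5b knock-down 1.47-fold lower, with -0.54 ± 0.16 (SE, adjusted p = 0.060 in limma). The difference between the knock-downs was -0.27 ± 0.16 (SE, adjusted p = 0.34 in limma). Its Ntn1 call stood under 13 of 17 other settings (adjusted p from 0.0014 to 0.12) and was lost without either Ntn1 knock-down library. Testing with no filter on low values or fitting no variance trend also ended that call. An exon of Nusap1 overlaps one of Oip5 on the other strand, and whether counting used strand is not stated in the labels.

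None of the other spindle and cytokinesis genes was called, and their estimates lay on both sides of 0. Kif23, a motor of the central spindle, had 3728 and 3037, then 4256 and 3911, then 3565 and 4477, above both controls in the Ntn1 knock-down (0.28 ± 0.15 SE, adjusted p = 0.26 in limma). Birc5, the survivin subunit of the chromosomal passenger complex, had 1741 and 1662, then 1869 and 1988, then 1765 and 2203. All 4 knock-down libraries were above the controls for Birc5, with log2 fold changes of 0.18 ± 0.14 (adjusted p = 0.42) and 0.21 ± 0.14 (SE, adjusted p = 0.36 in limma). The remaining members of this class are the spindle assembly factor Tpx2, the motors Kif11 and Kif20a, the hyaluronan receptor Hmmr, the microtubule bundler Prc1, the contractile ring protein Anln and the passenger kinase Aurkb. Their fold changes ran from -0.33 (Kif11) to 0.27 (Prc1) in the Ntn1 knock-down and from -0.32 (Anln) to 0.13 (Kif20a) in the Unc5b knock-down.

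At the kinetochore, Bub1b, which encodes the checkpoint kinase BubR1, had 2309 and 2600 in the empty vector, 1824 and 1826 with Ntn1 knocked down and 2184 and 2423 with Unc5b knocked down. The Ntn1 knock-down libraries were below both controls, 1.34-fold lower on average, with a log2 fold change of -0.42 ± 0.12 (SE, adjusted p = 0.047 in limma). The Unc5b knock-down overlapped the controls (-0.09 ± 0.12 SE, adjusted p = 0.68 in limma), and the difference between the knock-downs was -0.33 ± 0.12 (SE, adjusted p = 0.14 in limma). The Bub1b call was kept under 5 of 17 other settings, with adjusted p from 0.029 to 0.25. Among those that ended it were leaving out empty vector library 2 or any 1 of the 4 knock-down libraries. Bub1, its sister kinase, had 3327 and 3053, then 2675 and 2443, then 2398 and 3090. Ttk, the Mps1 kinase of the same checkpoint, had 1000 and 969, then 1172 and 1089, then 940 and 1200. In the Ntn1 knock-down Bub1 lay below both controls and Ttk above both, and neither passed the test.

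Cenpa, the histone that marks centromeres, had 1545 and 2012, then 1370 and 1556, then 1911 and 2358. Its groups overlapped against the controls, and both Ntn1 libraries were below both Unc5b libraries (-0.54 ± 0.17 SE, adjusted p = 0.096 in limma). The motor Cenpe, the kinetochore protein Cenpf and Mad2l1, the checkpoint protein Mad2, had fold changes between -0.30 (Cenpe) and -0.07 (Cenpf) in the Ntn1 knock-down and between -0.05 (Cenpe) and -0.01 (Cenpf) in the Unc5b knock-down. Of the anaphase genes, Cdc20, an activator of the anaphase-promoting complex, had 1307 and 1290, then 1013 and 902, then 1026 and 1177. It lay below both controls in both knock-downs, and in the Ntn1 knock-down the log2 fold change was -0.44 ± 0.13 (SE, adjusted p = 0.060 in limma). Ube2c, the ubiquitin-conjugating enzyme of that complex, had 2769 and 3453, then 2837 and 2281, then 2650 and 3271. Espl1, the separase that cuts cohesin, had 2091 and 1724, then 1924 and 1685, then 1530 and 2126. Both overlapped the controls.

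Of the markers most used for proliferation, Mki67 had 16164 and 11881 in the empty vector, 15551 and 14668 with Ntn1 knocked down and 8733 and 10453 with Unc5b knocked down. The Ntn1 libraries lay between the controls, and the Unc5b libraries below all others. Mki67 was 1.57-fold higher in the Ntn1 than in the Unc5b knock-down, with a log2 difference of 0.66 ± 0.16 (SE, adjusted p = 0.045 in limma). This was the 1 member of 53 called in that comparison, where 7.10% of all genes were called, 4.15% higher and 2.95% lower. At an unadjusted p under 0.05, 3 members were higher and 3 lower in that comparison, where 22.9% of all genes passed (10.8% higher and 12.1% lower). Against the empty vector Mki67 was lower with Unc5b knocked down, by 1.46-fold, without passing the test (-0.54 ± 0.16 SE, adjusted p = 0.065 in limma). The call between the knock-downs was kept under 9 of 17 other settings (adjusted p from 0.0060 to 0.30) and was lost without any 1 of the 4 knock-down libraries. Top2a, the other marker, had 18047 and 18489, then 21566 and 19258, then 18052 and 21666. Its fold changes were 0.16 (95% interval -0.12 to 0.44) and 0.11 (-0.17 to 0.40), so for these 2 markers the Unc5b knock-down had a negative and a positive estimate.

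Counted by library, 6 members were higher and 18 lower in both Ntn1 knock-down libraries than in both controls, where 28.0% of all genes were higher and 30.2% lower in that way. In the Unc5b knock-down, 2 members were higher and 10 lower, where 28.7% and 23.2% of all genes were. Between the knock-downs, 5 members were higher and 12 lower in both Ntn1 libraries than in both Unc5b libraries, where 24.4% and 31.3% of all genes were.

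From a list of 37 G1 cyclins, CDK inhibitors, pocket proteins and their partners, which control entry into the cycle, 35 were tested. The test called 8 of them (22.9%) with Ntn1 knocked down, where 15.1% of all genes were called, and 5 (14.3%) with Unc5b knocked down, which is near the 12.0% of all genes. With Ntn1 knocked down 4 rose (Ccnd2, Cdkn1a, Myc and E2f3) and 4 fell (Rbl2, Cdk6, Wee1 and E2f4), and in the Unc5b knock-down 2 rose (Ccnd2 and E2f6) and 3 fell (Rbl2, Cdkn1b and Cdk6). The gene E2f4 is named only to complete the count, after its value was seen. Between the knock-downs Cdkn1b was higher and Wee1 lower in the Ntn1 knock-down, 2 of 35 (5.71%) where 7.10% of all genes were called.

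Ccnd2, the D-type cyclin D2, had 61 and 190 in the empty vector, 1187 and 1052 with Ntn1 knocked down and 474 and 572 with Unc5b knocked down. It rose 8.92-fold and 4.17-fold, with log2 fold changes of 3.31 ± 0.42 (adjusted p = 0.0017) and 2.21 ± 0.42 (SE, adjusted p = 0.012 in limma). The empty vector libraries themselves differed, with library 1 at 0.321 times library 2. Ccnd1, its sister cyclin D1, had 8523 and 7504, then 8874 and 8492, then 8517 and 8897. Its fold changes were 0.12 in both (95% intervals -0.13 to 0.36 and -0.12 to 0.37). Of their kinases, Cdk6 fell in both knock-downs, from 19197 and 16545 to 11261 and 11124 and to 13865 and 12153 (1.60-fold, adjusted p = 0.0076, and 1.37-fold, adjusted p = 0.041 in limma). Cdk4 had 4105 and 4678, then 3831 and 3584, then 4309 and 4216, and was not called.

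Of the CDK inhibitors, 1 was called in each knock-down. Cdkn1a (p21) had 200 and 105 in the empty vector, 399 and 364 with Ntn1 knocked down and 265 and 255 with Unc5b knocked down. All 4 knock-down libraries were above both controls, with log2 fold changes of 1.36 ± 0.28 (adjusted p = 0.015) and 0.82 ± 0.28 (SE, adjusted p = 0.10 in limma). Cdkn1b (p27) had 2403 and 3398, then 2197 and 2361, then 1511 and 1274. With Unc5b knocked down it fell 2.08-fold (adjusted p = 0.0073), and the difference between the knock-downs was 0.71 ± 0.17 on the log2 scale (SE, adjusted p = 0.047 in limma). Cdkn2a had 2199 and 3652, then 1783 and 2049, then 2885 and 2231, and Cdkn2b had 454 and 761, then 480 and 514, then 960 and 621. Neither of these inhibitors of Cdk4 and Cdk6 passed the test.

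Of the pocket proteins, Rbl2 (p130, which holds E2F genes silent in resting cells) had 1142 and 1548 in the empty vector, 680 and 749 with Ntn1 knocked down and 603 and 445 with Unc5b knocked down. It fell 1.88-fold (adjusted p = 0.020) and 2.57-fold (adjusted p = 0.0043 in limma), although its exons overlap those of Aktip. Rb1 had 531 and 460, then 554 and 584, then 395 and 373, and was not called. Myc, a transcription factor that drives growth and G1 progression, had 4219 and 3263, then 6023 and 5905, then 5666 and 4866. It rose 1.59-fold in the Ntn1 knock-down (adjusted p = 0.015 in limma), and its Unc5b estimate was 1.41-fold (adjusted p = 0.059 in limma). Wee1, the kinase that holds Cdk1 inactive, had 1564 and 1502, then 1041 and 1027, then 1569 and 1797. It fell 1.48-fold in the Ntn1 knock-down (adjusted p = 0.018), and it was lower there than in the Unc5b knock-down by a log2 difference of -0.70 ± 0.12 (SE, adjusted p = 0.015 in limma). E2f3 rose 1.53-fold in the Ntn1 knock-down (adjusted p = 0.024) and E2f6, a repressive E2F, rose 1.68-fold in the Unc5b knock-down (adjusted p = 0.024 in limma).

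**Figure D5:**
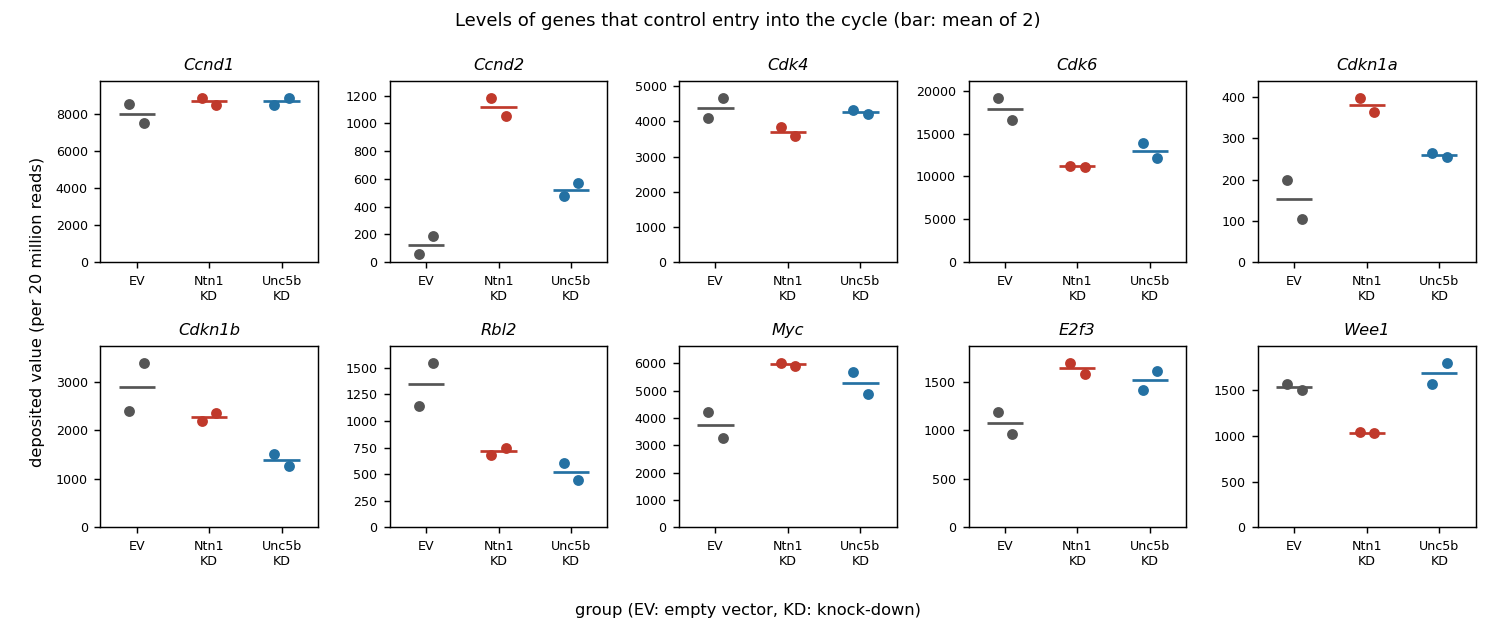
Values of 10 genes that control entry into the cycle in each library (points) with the mean of each group (bars), on linear axes that start at 0, for the empty vector (EV), the Ntn1 knock-down and the Unc5b knock-down. Ccnd2 is at most 190 in the controls and at least 474 in the knock-downs, Cdk6 and Rbl2 are lower in all 4 knock-down libraries, and the Ccnd1 groups lie at nearly one level.

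Of the 45 other replication genes, with Ntn1 knocked down 1 rose and 2 fell, and 1 rose and 3 fell in the Unc5b knock-down. These are 6.67% and 8.89% of the list, below the 15.1% and 12.0% of all genes called. Orc5, a subunit of the origin recognition complex, had 617 and 601 in the empty vector, 1255 and 1174 with Ntn1 knocked down and 896 and 973 with Unc5b knocked down, and rose in both (1.99-fold, adjusted p = 0.0019, and 1.53-fold, adjusted p = 0.018 in limma). Gins4, a partner of Gins2, had 1069 and 999, then 554 and 633, then 707 and 642, and fell in both (1.74-fold, adjusted p = 0.0077, and 1.53-fold, adjusted p = 0.027 in limma). Dut, which removes dUTP, had 3107 and 2426, then 1645 and 1682, then 1716 and 1925, and also fell in both (adjusted p = 0.012 and 0.032 in limma). Rpa1, the large subunit of the single-strand binding protein, fell 1.37-fold in the Unc5b knock-down (adjusted p = 0.044 in limma). Its Ntn1 estimate was nearly the same, 1.33-fold lower (adjusted p = 0.052 in limma). The difference between the knock-downs was 0.04 ± 0.12 (SE, adjusted p = 0.89 in limma). The list's median log2 fold change was -0.06 in the Ntn1 and -0.05 in the Unc5b knock-down.

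Of the 63 other mitosis genes, with Ntn1 knocked down 1 rose and 7 fell, and 0 rose and 2 fell in the Unc5b knock-down. These are 12.7% and 3.17% of the list, beside the same 15.1% and 12.0% of all genes. In the Unc5b knock-down 5 were higher and 10 lower at an unadjusted p under 0.05, where 14.3% and 12.6% of all genes were. There limma-voom called 0 higher and 2 lower, beside 11.4% of all genes called. Mad1l1, the checkpoint protein Mad1, rose 1.91-fold in the Ntn1 knock-down, from 953 and 755 to 1700 and 1569 (adjusted p = 0.0046 in limma). Its Unc5b estimate was 1.43-fold higher (adjusted p = 0.057 in limma). Ckap2, a microtubule protein of the spindle, had 2014 and 1898, then 1187 and 1024, then 836 and 1061, and fell 1.77-fold (adjusted p = 0.0090) and 2.06-fold (adjusted p = 0.0040 in limma). Its relative Ckap2l fell 1.64-fold in the Unc5b knock-down (adjusted p = 0.024 in limma). Also with Ntn1 knocked down, the motor Kif18a fell 1.62-fold, Cdca3 1.60-fold, the condensin subunit Ncapd2 1.44-fold and the cytokinesis factor Ect2 1.41-fold (adjusted p from 0.016 to 0.037 in limma). All of these were also below both controls in the Unc5b knock-down without being called (adjusted p from 0.083 to 0.26 in limma). In neither of these lists was a gene called between the knock-downs, where 7.10% of all genes were called. At an unadjusted p under 0.05, 4 of the 45 and 5 of the 63 passed, beside 22.9% of all genes. From both lists limma-voom also called 0, where it called 6.22% of all genes. Exons of Kif18a overlap Mettl15, and those of several other genes named from the 3 lists overlap predicted genes.

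The calls on these other genes depended on the libraries and on the variance model. Of the 29 calls on genes named from the 3 lists, leaving out 1 library ended 7 (empty vector library 1), 5 (empty vector library 2), 23 (either Ntn1 knock-down library), 9 (Unc5b knock-down library 1) or 10 (Unc5b knock-down library 2). These fits borrow the spread of the remaining groups for the lone library. Fitting the replicate number as a block ended 15 of the 29, testing with no filter on low values 19, fitting no variance trend 20 and fitting only the 2 groups compared 7. Of the calls with values given above, that of Ccnd2 in the Ntn1 knock-down, that of Orc5 in the Ntn1 knock-down and those of Rbl2 and Ckap2 in the Unc5b knock-down were kept under all 17 other settings.

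Some members share sequence with other genes. Exons of 16 members overlap those of another annotated gene (Mcm7, Cdc45, Gins2, Fen1, Ccne2, Cdk2, Ccna2, Foxm1, Cdc25c, Plk1, Nusap1, Prc1, Kif20a, Cdc20, Ube2c and Top2a), and 4 have an annotated pseudogene that carries their name (Pcna, Tyms, Ccnb1 and Ccnb2). Reads of these pairs could have been split or joined in counting, so their levels are less certain than those of the other members.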

How the data were processed

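RNA sequencing was done on 6 libraries (3 groups of 2). Per the labels' protocols, RNA came from a column kit and libraries from the Ovation Solo system. The submitters' processing notes name STAR, Picard, HTSeq and the builds GRCm38 and mm10. Whether counting used strand is not given in the labels or notes. The deposited score (CP20M) had been scaled by the authors to about 20 M per library and rounded. All values were whole multiples of 1 step per library (tolerance 0.5), so whole reads could be recovered.

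Of 49671 genes, the 15330 with a mean of at least 20 were fitted and tested with limma 3.58.1 (R 4.3.3) on log2(value + 5), with a variance trend, over all 6 libraries, 2-sided. Fold changes and SEs are on this scale, which understates changes of low genes. Self-tests used simulated data. The replicate numbers were not used to pair the libraries in this fit. Gene positions and exon lengths came from GENCODE (GRCm38). Members, lists and roles were chosen with earlier results of these data known. By rule, values are given for members called, for the highest and lowest of each role per comparison and for a set of standard markers, and for up to 6 called genes of each other list. Some items of the labels and marker lists are not reported here.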

Additional observations from a re-analysis of the deposited data

How the results depend on the processing

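The count of members called was within 1 of the main value under most settings. With main counts of 2, 0 and 1 this closeness says little, since 1 call is a large part of the count. For Ntn1 knock-down versus empty vector it was 2, and 1 with TMM scaling, median-of-ratios scaling, limma-voom on whole reads, only the 2 groups compared or the replicate block, and 0 with no filter or no variance trend. Leaving out 1 library gave 0 to 9. In the Unc5b knock-down it was 0, 1 with TMM scaling (Nusap1), and 0 to 10 on leaving out 1 library. Between the knock-downs it was 1, 0 with no filter, a mean of at least 100, no trend or the replicate block, 4 with only the 2 groups compared, and 0 to 3 on leaving out 1 library. Genes called numbered 2314 in the Ntn1 comparison (1289 with no filter, 1462 with no trend, 1465 with the replicate block, 509 to 2819 on leaving out 1 library). They numbered 1835 in the Unc5b comparison (791 with no filter, 1115 with no trend, 959 with only the 2 groups, 1102 with the replicate block, 669 to 2437 on leaving out 1 library). Between the knock-downs there were 1088 (302, 454, 1917 and 459 under those 4 settings, 33 to 1884 on leaving out 1 library). The median log2 fold change of the members ranged from -0.29 to 0.05 (Ntn1), from -0.18 to 0.12 (Unc5b) and from -0.22 to 0.09 (between the knock-downs). No call on a member or on a gene named from the other lists changed direction under any of these settings. The difference between library 1 and library 2 was compared across groups over all genes. Its correlation was 0.16 for empty vector and Ntn1 knock-down, -0.45 for empty vector and Unc5b knock-down and -0.17 for the 2 knock-downs. Over the members it was 0.17, -0.39 and -0.37. Same-numbered empty vector and Unc5b knock-down libraries thus tended to deviate in opposite directions. The numbers were not used as pairs in the main fit. Pseudocounts of 1 or 20 and robust variance changed no call on a named gene. The voom setting was chosen after seeing the data. Depth limits Ccne1 most among the members (57 reads in 1 library).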
